A study of Mus musculus with 20 samples.

Results

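Acetylation of histone H3 at lysine 27 (H3K27ac) was compared between fasted mouse livers that lacked both Cpt2 and Ppara and fasted livers that lacked Cpt2 only. The comparison holds 4 of the series' 20 samples: H3K27ac ChIP-seq libraries of 2 livers of the double knockout (DKO, Cpt2 L-/- ; Ppara -/-) and 2 livers of the Cpt2 knockout (Cpt2 L-/-). Every liver therefore carried the liver deletion of Cpt2, and the groups differed by the whole-body deletion of Ppara. All came from male C57BL/6 mice, 9 weeks old, fasted for 24 h. The driver of the liver deletion is not given in the sources used here. Of the 65776 consensus intervals of this mark, 50857 were called in at least 1 of the 4 livers and 25533 in all 4. Libraries of WT and Ppara knockout (Ppara -/-) livers of the same age, sex, strain and fast, 2 of each, served for the shared spread between livers and for a comparison with Cpt2 present.

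Ppara is a nuclear receptor that binds fatty acids and, paired with a retinoid X receptor, activates genes of fatty acid uptake, oxidation and ketone body synthesis during a fast. Its known response element is a direct repeat of AGGTCA with a single base between the repeats. Cpt2 is the inner mitochondrial carnitine palmitoyltransferase without which long-chain acyl-CoA cannot enter mitochondrial oxidation, so that fatty acids build up in a fasted liver that lacks it. H3K27ac marks active promoters and enhancers, and H3K4me1 marks enhancers whether or not they are acetylated.

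Values are the authors' fold enrichment of the highest peak of a library in an interval, the ChIP signal at the summit over the local input. The log2 difference is DKO minus Cpt2 KO after each library was centred on its median, given with its standard error (SE) over livers. Differences were tested with limma on all 25533 intervals together, and an interval "passed" where its p, adjusted by the Benjamini-Hochberg method over all of them, was below 0.05. An interval without a peak in a library is "uncalled": it had no peak at the caller's threshold, which is not the same as no acetylation. An interval is described by the protein-coding gene body nearest to its middle, and nearness does not show which gene it serves. Coordinates are mm10 and were taken from the authors' consensus file.

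The 4 libraries held 46445 and 47361 peaks (Cpt2 KO) and 48929 and 48124 peaks (DKO), with median folds of 8.02 and 7.42, and of 7.75 and 8.21. Depth in reads is unknown. Peak names carry animal numbers from separate ranges for the 2 genotypes, so animal series and genotype cannot be told apart. Of 12 listed hepatocyte marker genes 11 had a called interval, and Apoa1 had none assigned to it. Bulk liver was measured, so fewer cells of a type and less acetylation per cell cannot be told apart. The labels do not say whether the 2 livers of a group shared a litter or a day, so p-values cover only the spread between these livers.

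Acetylation fell at the Cyp4a fatty acid hydroxylases, the peroxisomal thiolase Acaa1b and the acyl-CoA synthetase Slc27a2, which supplied 4 of the 12 largest falls within 50000 bases of a gene, and rose most at Spon1 and Itpr1. At 400 intervals (1.57% of those tested) DKO was lower and at 191 (0.748%) it was higher than Cpt2 KO; 3498 intervals had an unadjusted p under 0.05. The fallen intervals lay nearest to 365 genes and fell by a median of 1.34 on the log2 scale, or 2.53-fold, and the risen ones lay nearest to 172 genes with a median rise of 1.24, or 2.36-fold. Without centring, which moved the median interval by 0.10 log2, 260 were higher and 286 lower, so the share of calls that were higher was 32.3% with centring and 47.6% without. The counts depended on single livers, and least on DKO replicate 1. Omitting a compared liver leaves 1 liver in its group, so the weight of that liver cannot be told apart from lost power. Leaving out Cpt2 KO replicate 1 left 85 higher and 121 lower intervals, leaving out Cpt2 KO replicate 2 left 37 and 93, and leaving out DKO replicate 2 left 67 and 209.

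**Figure D1:**
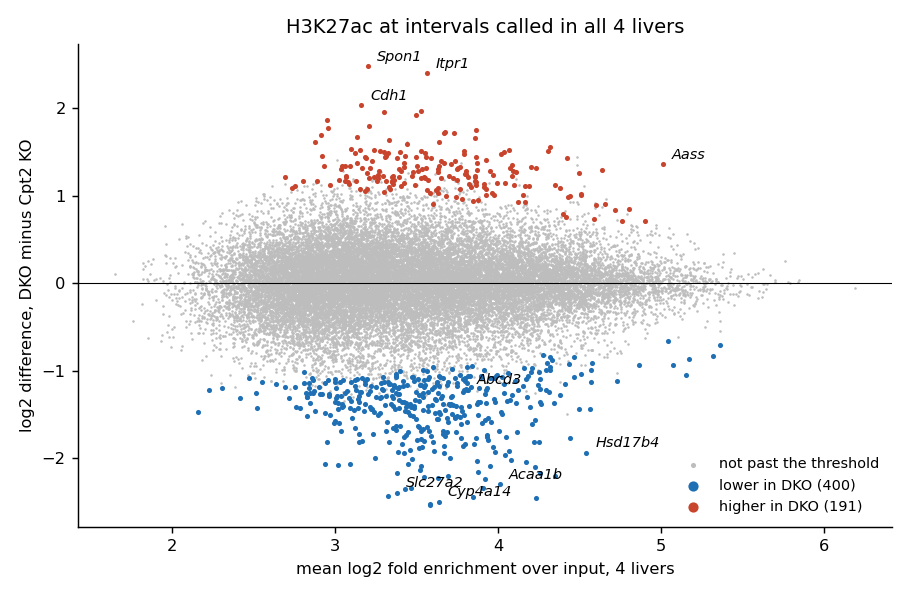
H3K27ac log2 difference (DKO minus Cpt2 KO) against mean log2 fold enrichment over input for 25533 intervals called in all 4 livers; each point is an interval, blue for the 400 that were lower and red for the 191 that were higher at the adjusted threshold. Cyp4a14 and Slc27a2 lie near the bottom and Spon1 and Itpr1 at the top.

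Where a changed interval covered the start of its gene, the promoter itself can be shown. The 250 bases before the start are printed for the 4 lowered promoters (Fabp1, which held the only motif match, and the 3 named genes with the largest falls) and the 2 named genes with the largest rises whose interval covers their start. Sequences are from RefSeq on GRCm38.p6, the assembly that mm10 names, 5′ to 3′ on the strand of the gene; capitals mark a match to AGGNCA, any base, AGGNCA.
Fabp1, chr6:71199629-71199878, plus strand: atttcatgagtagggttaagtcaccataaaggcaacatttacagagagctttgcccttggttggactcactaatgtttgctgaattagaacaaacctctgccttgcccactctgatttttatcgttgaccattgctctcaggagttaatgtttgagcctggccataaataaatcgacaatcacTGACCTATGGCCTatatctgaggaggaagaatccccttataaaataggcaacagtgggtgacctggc
Acaa1b, chr9:119157094-119157343, minus strand: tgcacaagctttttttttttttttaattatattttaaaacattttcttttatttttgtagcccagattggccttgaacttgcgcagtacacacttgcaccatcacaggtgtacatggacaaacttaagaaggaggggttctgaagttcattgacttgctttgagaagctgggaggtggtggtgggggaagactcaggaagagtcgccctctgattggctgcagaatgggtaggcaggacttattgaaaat
Mfsd2a, chr4:122961189-122961438, minus strand: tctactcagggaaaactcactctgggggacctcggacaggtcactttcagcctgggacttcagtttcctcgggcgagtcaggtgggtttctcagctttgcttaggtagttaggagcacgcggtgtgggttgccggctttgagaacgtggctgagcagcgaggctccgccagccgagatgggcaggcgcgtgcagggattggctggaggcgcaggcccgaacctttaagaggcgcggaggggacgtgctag
Retsat, chr6:72598352-72598601, plus strand: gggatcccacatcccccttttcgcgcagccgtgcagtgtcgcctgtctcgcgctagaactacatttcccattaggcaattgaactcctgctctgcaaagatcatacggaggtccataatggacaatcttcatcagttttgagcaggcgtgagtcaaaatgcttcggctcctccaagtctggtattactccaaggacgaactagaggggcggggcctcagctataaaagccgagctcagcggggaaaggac
Aass, chr6:23132987-23133236, minus strand: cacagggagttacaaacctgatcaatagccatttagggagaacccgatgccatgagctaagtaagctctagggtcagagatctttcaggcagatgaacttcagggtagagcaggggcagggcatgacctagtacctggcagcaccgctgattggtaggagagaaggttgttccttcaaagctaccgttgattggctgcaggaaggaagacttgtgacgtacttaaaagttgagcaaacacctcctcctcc
Slco1a4, chr6:141856221-141856470, minus strand: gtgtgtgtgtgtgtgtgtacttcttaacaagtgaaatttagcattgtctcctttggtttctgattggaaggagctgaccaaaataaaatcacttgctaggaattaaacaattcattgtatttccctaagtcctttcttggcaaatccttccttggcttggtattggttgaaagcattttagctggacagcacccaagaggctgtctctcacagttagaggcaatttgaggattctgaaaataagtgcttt

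Fabp1 is the liver's cytosolic fatty acid binding protein, Acaa1b a peroxisomal thiolase, Mfsd2a a carrier of lysophospholipids, Retsat a retinol saturase, Aass the first enzyme of lysine breakdown and Slco1a4 an organic anion transporter. The Fabp1 match begins 67 bases before the start and reads AGGCCATAGGTCA on the opposite strand. An exact form of the element (AGGTCA, any base, AGGTCA) and a relaxed form (AGGNCA, any base, AGGNCA, which includes every exact match) were searched on both strands in 21263 listed promoter windows of 17492 protein-coding genes. The relaxed form was found in 0.32% of all windows, in 0.32% of 8439 inside tested intervals, in 1 of 66 (1.52%) inside lowered intervals and in 0 of 21 inside raised ones. The exact form was found in 0.0423% of all windows and in 0 of those 66 and 0 of those 21. A window of 250 bases leaves out sites further away, and most changed intervals covered no start: 54 of the 400 lowered ones (13.5%) and 17 of the 191 raised ones (8.90%) held a listed start, against 26.2% of all tested intervals.

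Cyp4a genes encode the microsomal enzymes that hydroxylate the last carbon of fatty acids, and all 3 of their tested intervals, near 3 genes, fell. At Cyp4a14 (chr4:115490936-115498991, inside the gene body) the folds were 30.6 and 26.7 in Cpt2 KO and 5.32 and 5.51 in DKO. Both DKO livers lay far below both Cpt2 KO livers, by 2.50 on the log2 scale (SE 0.24, limma adjusted p = 0.000396), and neither Ppara KO liver had a call there while the WT livers had folds of 9.25 and 11.6. The interval 3473 bases from Cyp4a32 (chr4:115595938-115598970) had folds of 48.3 and 37.7 in Cpt2 KO and of 8.12 and 8.52 in DKO (log2 difference −2.46, SE 0.25, limma adjusted p = 0.000396). At an interval 461 bases from Cyp4a10 (chr4:115513203-115522449) folds of 29.5 and 19.8 stood against 7 and 6.43 (−1.95, SE 0.27, limma adjusted p = 0.00171). These falls passed with any single library left out.

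Smaller intervals along the Cyp4a cluster were lost as calls. Of 20 intervals near the listed Cyp4a genes that were called in at least 1 of the 4 livers, 9 were called in both Cpt2 KO livers and neither DKO liver, and 0 the other way round; over all intervals within 10000 bases of a gene these shares were 5.11% and 5.35%. One of the 9, near Cyp4a31, had folds of 16 and 10.1 in Cpt2 KO and of 10.01 and 9.85 in WT. Neither Ppara KO liver had a call at any of the 9, where the DKO livers lacked a call by the choice of these intervals. Paralogs of this cluster are alike in sequence, and how the authors placed reads that fit several copies is not given in the sources used here.

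The acyl-CoA thioesterases of the Acot cluster, which split acyl-CoA into fatty acid and CoA, followed. At Acot1 (chr12:84008230-84011627, across its start) the folds were 18.6 and 20.7 in Cpt2 KO and 6.65 and 6.74 in DKO (log2 difference −1.65, SE 0.25, limma adjusted p = 0.00438). Acot4 (chr12:84037083-84044718) went from 25.9 and 30.6 to 13.1 and 12.8 (−1.21, SE 0.25, limma adjusted p = 0.0202). The other 2 tested intervals of the list, at Acot2 (−0.69, across its start) and 5606 bases from Acot1 (−0.15), did not pass. Of 17 intervals called near these genes 8 were called only in Cpt2 KO and 0 only in DKO, the highest of them near Acot4 with folds of 12.8 and 19.1. Near any gene these shares were 5.11% and 5.35%. Without Cpt2 KO replicate 2 neither fall passed (limma adjusted p = 0.0663 for Acot1 and 0.19 for Acot4), and Acot4 did not pass without DKO replicate 2 either (limma adjusted p = 0.11).

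Peroxisomal oxidation shortens very long and branched fatty acids. Of 42 tested intervals near 18 of its listed genes, 8 near 5 genes fell and 0 rose, with a median of −0.15 over the list beside 0.00 over all 21177 tested intervals within 10000 bases of a gene. Background shares there were 1.51% lower and 0.562% higher. Acaa1b (chr9:119151863-119160654) had folds of 37.4 and 32 in Cpt2 KO and 9.18 and 6.17 in DKO, a difference of −2.30 (SE 0.26, limma adjusted p = 0.000539). Hsd17b4, the multifunctional protein of the pathway (chr18:50126596-50135452), had 46.3 and 42.1 against 13.5 and 11.2 (−1.94, SE 0.21, limma adjusted p = 0.000396). Abcd3, a transporter of the peroxisomal membrane (chr3:121809863-121816444), had 51.02 and 48.2 against 24 and 27.2 (−1.06, SE 0.14, limma adjusted p = 0.00161). Those 3 falls passed with any library left out. Eci2, an enoyl-CoA isomerase, fell by 1.59 and Pxmp4, a peroxisomal membrane protein, by 0.94, but Eci2 did not pass without Cpt2 KO replicate 2 (limma adjusted p = 0.0807) nor Pxmp4 in 6 of 8 such omissions (up to 0.233, without Cpt2 KO replicate 1).

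Calls in a single genotype were also counted for the peroxisomal list. Of 94 intervals called near the listed genes in at least 1 liver, 11 were called only in Cpt2 KO, 2 of them near Ehhadh, the bifunctional enzyme. The number called only in DKO was 3. Of called intervals near any gene, 5.11% were called only in Cpt2 KO and 5.35% only in DKO.

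Mitochondrial oxidation enzymes showed 6 falls and 0 rises among 29 tested intervals near 16 genes (list median −0.27; 1.51% of tested intervals near any gene fell and 0.562% rose). Decr1, the reductase for unsaturated fatty acids (chr4:15936372-15945945), had 29.3 and 26.5 in Cpt2 KO and 8.05 and 10.6 in DKO, a difference of −1.69 (SE 0.22, limma adjusted p = 0.00144) that passed in every omission of a library. The short-chain dehydrogenase Acads (−1.33, limma adjusted p = 0.00857), Acad11 (−1.49, 0.00987), the very-long-chain dehydrogenase Acadvl (−1.19, 0.0162) and Slc25a20, the carrier of acylcarnitines (−1.38, 0.0169), fell too. Each of those 4 lost its call in 3 or 4 of the 8 omissions, all of DKO or Cpt2 KO livers, with adjusted p up to 0.0746 without Cpt2 KO replicate 2 for Acads, 0.0902 without DKO replicate 2 for Acad11, 0.129 without Cpt2 KO replicate 1 for Acadvl and 0.201 without Cpt2 KO replicate 2 for Slc25a20. The remaining fall was at Cpt2, the gene deleted in every compared liver (−1.07, limma adjusted p = 0.035, lost in 6 omissions). Cpt1a, which loads fatty acids onto carnitine, had overlapping folds of 32.1 and 26.6 in Cpt2 KO and 23.2 and 29.2 in DKO (−0.26, limma adjusted p = 0.583). Hadhb, the beta subunit of the trifunctional protein, had 6 intervals called only in Cpt2 KO, the highest with folds of 20.1 and 23.2 there and 10 and 12 in WT. In all, 13 of 64 intervals near the mitochondrial genes were called only in Cpt2 KO and 1 only in DKO, where 5.11% and 5.35% of intervals near any gene were.

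Genes that bring fatty acids into the cell and activate them held 7 falls and 0 rises in 29 tested intervals near 15 genes (median −0.43). Near any gene 1.51% of tested intervals fell and 0.562% rose. Slc27a2, an acyl-CoA synthetase and transporter, had folds of 20.3 and 26.3 in Cpt2 KO and 6.12 and 3.6 in DKO at an interval 7556 bases from its body (chr2:126543642-126547294; −2.40, SE 0.32, limma adjusted p = 0.00161), and passed in every omission. Slc27a1, a transporter of the same family, had 22.7 and 22.1 against 9.35 and 11.3 (−1.22, SE 0.22, limma adjusted p = 0.011). Fabp1 (chr6:71193024-71204761), whose promoter is printed above, had 25.7 and 25.6 against 9.08 and 14.1 (−1.28, SE 0.24, limma adjusted p = 0.0113). Slc27a1 and Fabp1 each lost the call in 3 omissions, with adjusted p up to 0.111 without Cpt2 KO replicate 2. The DKO livers were unlike each other at Mfsd2a, with folds of 15.4 and 4.89 against 30.3 and 35.9 in Cpt2 KO (−2.02, SE 0.48, limma adjusted p = 0.0396), and the fall did not pass without DKO replicate 2 (−1.10, limma adjusted p = 0.274).

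Acsl1, the main long-chain acyl-CoA synthetase of liver, was nearest to 4 intervals that fell and 4 called only in Cpt2 KO. The largest fall lay 67089 bases from the gene body, with folds of 31.6 and 24.1 in Cpt2 KO and 10.2 and 7.08 in DKO (−1.79, SE 0.28, limma adjusted p = 0.00451). The strongest interval at Acsl1 itself, across a start, had overlapping folds of 22.8 and 25.8 in Cpt2 KO and 23.4 and 20.9 in DKO. Cd36, the fatty acid translocase, was nearest to 6 intervals called only in Cpt2 KO; the strongest had 19.2 and 23.5 in Cpt2 KO, was called in 1 WT liver at 9.05, and was uncalled in all Ppara KO and DKO livers. Another Cd36 interval called in all 4 livers had 19.9 and 16.8 against 7.5 and 9.75 and did not pass (−1.19, limma adjusted p = 0.0565). In all, 24 intervals nearest to Acsl1 and 14 nearest to Cd36 were called in at least 1 liver. Over all intervals so called, 5.32% were called only in Cpt2 KO and 5.92% only in DKO.

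Ketone body genes had no interval that passed in limma (0 of 10 tested, 3 with an unadjusted p under 0.05). Of the 10, 6 had both DKO livers below both Cpt2 KO livers and 1 had both above, beside 22.5% and 22.3% of all tested intervals. Of 21 called intervals 6 were called only in Cpt2 KO and 1 only in DKO, beside 5.11% and 5.35% near any gene. Among the fixed genes of fasting metabolism, Pdk4, which blocks pyruvate entry (23.6 and 20 against 18.8 and 17.7; limma adjusted p = 0.61), Angptl4, an inhibitor of lipoprotein lipase (27.2 and 20.7 against 21.1 and 21.1; 0.648), and Plin2, a lipid droplet coat protein (27 and 20.8 against 18 and 22.4; 0.599), did not pass. The groups overlapped at Angptl4 and Plin2, while at Pdk4 both DKO livers lay just below both Cpt2 KO livers.

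Fgf21 encodes a hormone the fasted liver secretes. The interval across its start (chr7:45613190-45616441) had folds of 22 and 21.6 in Cpt2 KO and was uncalled in both DKO livers. It was called in both WT livers (15 and 18.4) and in neither Ppara KO liver. A weaker interval 3100 bases away (chr7:45609740-45611841) had overlapping folds of 8 and 5.7 in Cpt2 KO and 7.9 and 9 in DKO (0.22, SE 0.26, limma adjusted p = 0.807). Another interval near Fgf21 went the other way and was called only in DKO. Among 14 called intervals near fasting hepatokine genes 2 were called only in DKO and 1 only in Cpt2 KO. Near any gene these shares were 5.35% and 5.11%. Vnn1, a pantetheinase, had 3 intervals called only in Cpt2 KO, the strongest with 34 and 30.5 there and 14.4 and 12.2 in WT, and uncalled in Ppara KO. Intervals of listed genes with calls in a single genotype, such as these, were singled out after their values were seen.

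Other textbook targets of Ppara had 2 falls and 0 rises in 21 tested intervals (median −0.15), and 11 of 51 called intervals were called only in Cpt2 KO against 0 only in DKO. At the interval across the starts of Retsat and Elmod3 (chr6:72596015-72606270) folds were 26.4 and 25.9 in Cpt2 KO and 8.71 and 7.65 in DKO (−1.78, SE 0.25, limma adjusted p = 0.00205), and the fall passed in every omission. WT livers had 11.3 and 10.2 there, nearer to DKO than to Cpt2 KO. Txnip, which restrains glucose uptake (chr3:96556710-96567677), had 39.8 and 36 against 15.9 and 21.7 (−1.12, SE 0.22, limma adjusted p = 0.014; lost in 3 omissions, up to 0.111 without Cpt2 KO replicate 2). Its WT folds of 11.5 and 18.4 and Ppara KO folds of 14.3 and 14 overlapped. Near any gene 1.51% of tested intervals fell and 0.562% rose. Of called intervals there, 5.11% were called only in Cpt2 KO and 5.35% only in DKO. Among lipid droplet and lipolysis genes 1 of 28 tested intervals fell and 0 rose (median −0.23): Fitm2, a protein of droplet formation, went from 26.1 and 25.1 to 10.4 and 11.2 (−1.34, SE 0.22, limma adjusted p = 0.00619; 0.0746 without Cpt2 KO replicate 2).

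**Figure D2:**
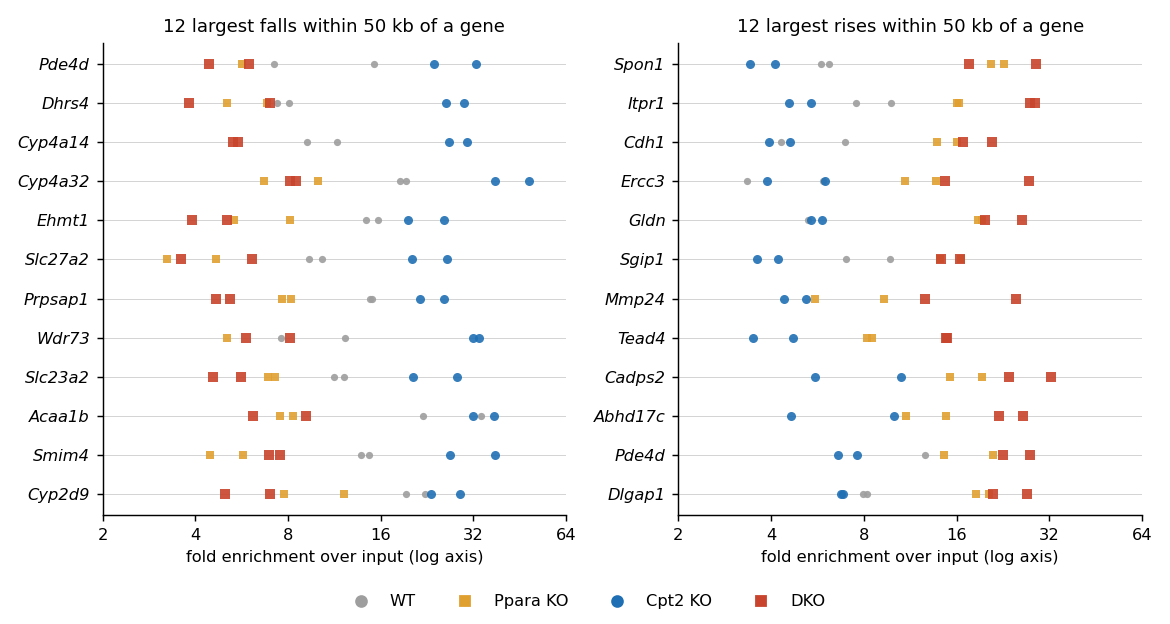
Fold enrichment over input (log axis) in each liver at the 12 intervals with the largest falls (left) and the 12 with the largest rises (right) among those within 50000 bases of a gene body, 1 per gene; a missing symbol is an uncalled liver. The 24 intervals were chosen among those that passed with DKO and Cpt2 KO livers that do not overlap, so the gap between these groups is part of the choice. The called Ppara KO livers lie nearer to DKO than to Cpt2 KO at Cyp4a32, Acaa1b and Spon1.

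The 12 largest falls within 50000 bases of a gene also named genes outside fatty acid metabolism. Pde4d, a phosphodiesterase that breaks down cAMP, had the largest of all at an interval inside its gene body (chr13:109588157-109591616), from 32.5 and 23.9 in Cpt2 KO to 5.96 and 4.44 in DKO (−2.54, SE 0.37, limma adjusted p = 0.003). Another interval of the same gene (chr13:109901428-109904192) rose, from 7.6 and 6.6 to 22.6 and 27.6 (1.72, SE 0.24, limma adjusted p = 0.00205), and 5 genes in all held both a fallen and a risen interval. Dhrs4, a carbonyl reductase, Ehmt1, a histone H3 lysine 9 methyltransferase, Slc23a2, a vitamin C transporter, and Cyp2d9 were the others with known roles, with log2 differences from −2.53 to −2.23. Prpsap1, Wdr73 and Smim4 completed the 12, and every one of the 12 passed in each omission of a library. An interval 56321 bases from Lipg, an endothelial lipase, lay beyond that distance and fell as far, from 33.4 and 31.5 to 6.93 and 5.84 (−2.45, SE 0.25, limma adjusted p = 0.000396); it is named here after its value was seen.

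Deptor, an inhibitor of the growth kinase mTOR, was nearest to 3 intervals that fell and 6 called only in Cpt2 KO. The largest fall, inside its body (chr15:55222746-55226151), went from 46.8 and 38.2 to 9.83 and 9.85 (−2.20, SE 0.21, limma adjusted p = 0.000396), against 15.8 and 15.7 in WT. Pank1, which starts coenzyme A synthesis, and Papss2, a sulfate donor synthase, had no tested interval past the threshold but 8 each called only in Cpt2 KO, of 19 and 21 called in any of the 4 livers. Aldh1a1, a retinaldehyde dehydrogenase, had 2 falls and 8 such calls among 33 intervals, and Deptor's were among 23. These genes were singled out for their number of intervals after the values were seen. Over all intervals called in at least 1 liver, 5.32% were called only in Cpt2 KO and 5.92% only in DKO.

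Within the same distance, the 3 largest rises lay at Spon1, Itpr1 and Cdh1. Spon1, a secreted matrix protein, had folds of 3.43 and 4.13 in Cpt2 KO and 17.6 and 28.9 in DKO inside its body (chr7:113960150-113963520; 2.49, SE 0.27, limma adjusted p = 0.000396). Itpr1, a calcium channel of the endoplasmic reticulum (chr6:108462735-108468518), had 4.57 and 5.4 against 28.8 and 27.6 (2.41, SE 0.27, limma adjusted p = 0.000396). Among 33 intervals nearest to Itpr1 that were called in at least 1 liver, 7 were called only in DKO and 2 only in Cpt2 KO. Over all intervals so called these shares were 5.92% and 5.32%. Cdh1, or E-cadherin (chr8:106603272-106607370), had 4.61 and 3.94 against 20.8 and 16.8 (2.04, SE 0.27, limma adjusted p = 0.00161). Gldn, Sgip1 and Dlgap1 rose by 1.93, 1.87 and 1.71 and, like Spon1, Itpr1 and Cdh1, passed in every omission. Ercc3 (1.95), Mmp24 (1.80), Tead4 (1.77), Cadps2 (1.76) and Abhd17c (1.73) rose but lost the call in 1 to 3 omissions, with adjusted p up to 0.0722, 0.106, 0.0577, 0.09 and 0.112; the Cpt2 KO livers were among the omissions for each, and DKO replicate 2 for Mmp24 and replicate 1 for Abhd17c. Beyond 50000 bases, an interval 123354 bases from Cd180 rose from 7.05 and 4.5 to 19.8 and 28.2 (1.97, SE 0.26, limma adjusted p = 0.00161), and it too is named after its value was seen.

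Genes of amino acid breakdown had rises and no falls. Of 35 tested intervals near 17 genes of urea synthesis and amino acid breakdown 2 rose and 0 fell (median 0.11), and of 120 called intervals 12 were called only in DKO and 0 only in Cpt2 KO. Near any gene, 0.562% of tested intervals rose and 1.51% fell, and 5.35% of called intervals were called only in DKO and 5.11% only in Cpt2 KO. At Aass (chr6:23129043-23134960) folds were 20.6 and 18.4 in Cpt2 KO and 55.3 and 52 in DKO, against 24.6 and 31.2 in WT and 26.6 and 20.1 in Ppara KO; the rise of 1.36 (SE 0.19, limma adjusted p = 0.00205) passed in every omission. Sds, serine dehydratase, had 14.3 and 12.5 against 37.4 and 26 (1.12, SE 0.24, limma adjusted p = 0.0236) and did not pass without DKO replicate 1 (0.78, limma adjusted p = 0.182), nor when either Cpt2 KO liver was left out. Ass1, argininosuccinate synthase, had 5 of the 12 calls, all with folds of at most 6.6.

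Gluconeogenesis and fasting signalling genes had 2 rises and 0 falls in 60 tested intervals (median 0.02): Sds again, and Ppargc1a, the coactivator of gluconeogenesis, at an interval with folds of 8.02 and 5.98 in Cpt2 KO and 16.4 and 19.5 in DKO (1.27, SE 0.26, limma adjusted p = 0.022), which lost the call in 4 omissions (up to 0.184, without Cpt2 KO replicate 2). Of 110 called intervals of that list 11 were called only in DKO, 4 of them near Gpt2, an alanine aminotransferase, and 4 only in Cpt2 KO. Fatty acid and triglyceride synthesis genes had 3 falls and 0 rises in 61 (median −0.06), with 6 of 117 called only in DKO and 8 only in Cpt2 KO, beside the background shares of falls (1.51%), rises (0.562%) and calls in DKO only (5.35%) or Cpt2 KO only (5.11%). Among the falls was Gpam, the first enzyme of triglyceride synthesis (34.7 and 27.9 against 8.88 and 14.3; −1.56, SE 0.29, limma adjusted p = 0.0127; lost in 3 omissions, up to 0.0886 without Cpt2 KO replicate 1). For cholesterol synthesis and uptake limma called 0 of 34 (8 had an unadjusted p under 0.05, 14 had both DKO livers above both Cpt2 KO livers and 5 below), with 8 intervals called only in DKO, 2 of them near Sqle, and 1 only in Cpt2 KO of 73. Both DKO livers lay above both Cpt2 KO livers at 22.3% of all tested intervals and below at 22.5%. Slc2a9, a urate transporter, fell from 15.1 and 15.3 to 3.18 and 4.72 (−2.07, SE 0.25, limma adjusted p = 0.000879), while with the recovered pileup height in place of the fold it was −0.43 (limma adjusted p = 0.278).

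**Figure D3:**
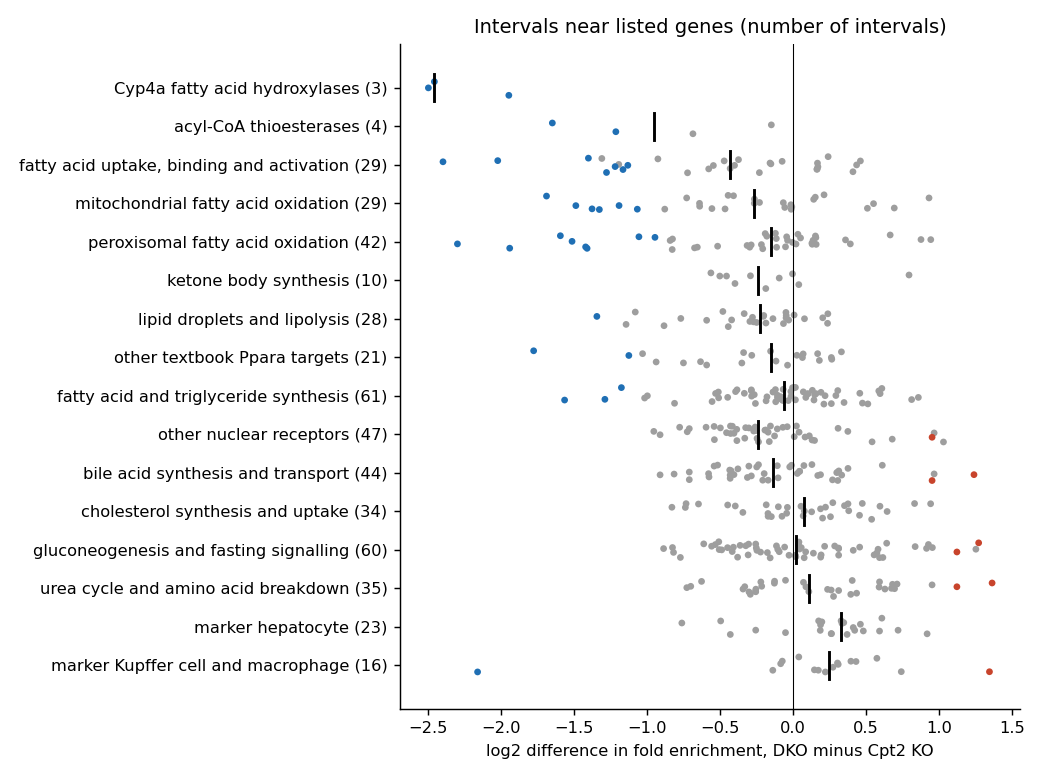
Log2 difference (DKO minus Cpt2 KO) at tested intervals within 10000 bases of listed genes, 1 row per list with its number of intervals; blue points fell, red points rose, grey points did not pass, and the bar is the list's median. All 3 Cyp4a intervals lie below −1.9, and blue points gather in the rows of fatty acid uptake and of mitochondrial and peroxisomal oxidation.

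The deleted genes were acetylated in both groups, and an acetylation peak outside a deleted stretch does not check the deletion. At Cpt2 an interval across the start (chr4:107920649-107924008) went from 18.7 and 23.2 to 9.33 and 12.2 (−1.07, SE 0.25, limma adjusted p = 0.035) and lost its call in 6 omissions (up to 0.311, without Cpt2 KO replicate 2). At Ppara 3 of 6 tested intervals fell, all inside the gene body, the first (chr15:85785705-85791413) from 20.1 and 21.0 to 10.1 and 8.89 (−1.21, SE 0.24, limma adjusted p = 0.0169) while the other two fell by 1.32 and 1.08. Those 3 calls were lost in 3 or 4 omissions each, of Cpt2 KO or DKO livers, with adjusted p from 0.157 to 0.198 without Cpt2 KO replicate 2. The interval across the start of Ppara (chr15:85730896-85741526) was higher in both DKO livers, 32.3 and 43.9 against 25.3 and 22.9, without passing (0.55, SE 0.19, limma adjusted p = 0.17). A further 8 intervals near Ppara were called only in Cpt2 KO and 1 only in DKO.

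Clock and nuclear receptor genes gave single calls. Nfil3, a repressor of the circadian system, rose from 11.4 and 14.1 to 34.3 and 38.8 at an interval in its body (1.43, SE 0.30, limma adjusted p = 0.022; lost in 4 omissions, up to 0.145 without Cpt2 KO replicate 1), and an interval 3136 bases away (chr13:52984764-52987265) was called only in DKO with folds of 21.3 and 29.7. Nr0b2, the repressor of bile acid synthesis, rose from 10.7 and 9.69 in Cpt2 KO to 17.5 and 25.6 (0.95, limma adjusted p = 0.035), and Slco1a4, whose promoter is printed above, from 14.4 and 6.76 to 24.7 and 25.2 (1.24, limma adjusted p = 0.0344). Each of these 2 lost the call in 5 omissions, up to 0.285 without DKO replicate 2 for Nr0b2 and 0.341 without Cpt2 KO replicate 2 for Slco1a4. Ppargc1b, a coactivator of Ppara, fell from 34.7 and 41.02 to 10.97 and 20.2 (−1.44, SE 0.24, limma adjusted p = 0.00545; 0.0853 without Cpt2 KO replicate 2).

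Beyond these, hepatocyte transcription factors had 1 fall in 47 tested intervals (Tbx3, from 14.1 and 13.8 to 5.33 and 8.59; −1.14, limma adjusted p = 0.0495; lost in 6 omissions, up to 0.238 without Cpt2 KO replicate 2). The other nuclear receptors had the Nr0b2 rise alone in 47, and xenobiotic and steroid P450 genes the Cyp2d9 fall alone in 26. Over all tested intervals near a gene 1.51% fell and 0.562% rose, so a single call does not set these lists apart. Arntl, the core activator of the clock, fell from 15.5 and 13.7 to 6.42 and 8.48 (−1.08, limma adjusted p = 0.035; lost in 5 omissions, up to 0.209 without Cpt2 KO replicate 1). Another interval near Arntl went the other way and was called only in DKO. Clock genes had 1 rise and 1 fall in 36 tested intervals. Among their 59 called intervals 5 were called only in DKO and 2 only in Cpt2 KO, beside 5.35% and 5.11% near any gene. In limma 0 intervals passed for genes of the integrated stress response (17 tested, 4 with an unadjusted p under 0.05), the cell cycle (20 and 6), fibrosis (19 and 3), fasting hepatokines (5 and 1) and reference functions (15 and 1).

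Calls in both livers of one genotype and neither of the other numbered 3009 for DKO (5.92% of the 50857 intervals called in at least 1 liver) and 2704 for Cpt2 KO (5.32%), with no test for single intervals. Within 50000 bases of a gene, the strongest calls only in DKO were at Acmsd, which steers tryptophan breakdown away from NAD (chr1:127754169-127757140; 32.01 and 37.4), and at Grin2b, Nfil3, Pcdh20, Gldn and Pde6h, where the lower of the DKO folds lay between 16.8 and 23.3. At all 6 both Ppara KO livers were also called, at Acmsd with 22.7 and 24.6, and only Gldn had a call in a WT liver. The strongest only in Cpt2 KO were at Sel1l3 (24252 bases away; 51.8 and 45.8), Prox2, Bfar, Pik3c2g, Mogat1 and Ppp2r5c. At all 6 both WT livers were called at lower folds, between 7.25 and 21.4, and neither Ppara KO liver was. Mogat1, an acyltransferase that makes diacylglycerol, had 32.8 and 32 in Cpt2 KO and 9.25 and 13.4 in WT. Of all 2704 called only in Cpt2 KO, 477 (17.6%) were called in both WT livers and neither Ppara KO liver, against 2.74% of the 50857. Of all 3009 called only in DKO, 416 (13.8%) were called in both Ppara KO livers and neither WT liver, against 5.91%. No WT or Ppara KO liver had a call at 1202 of the 2704 and at 1485 of the 3009. Folds of at least 10 in both livers were seen at 368 of the intervals called only in Cpt2 KO and at 95 of those called only in DKO.

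The same deletion with Cpt2 present was read from Ppara KO and WT livers, whose log2 difference shares no library with that of DKO and Cpt2 KO. Both tests took their spread from all 8 libraries, so the counts that passed are not independent between the comparisons. Of the 345 fallen intervals that were called in all 8 livers, 283 (82.0%) were lower in Ppara KO than in WT and 78 passed as lower, against 52.4% lower over all 18281 intervals. Of 108 risen ones, 98 (90.7%) were higher and 26 passed. Background calls for Ppara KO against WT were 3.59% lower and 2.83% higher. Medians of Ppara KO minus WT were −0.51 at the fallen and 0.64 at the risen intervals, where the chosen difference had medians of −1.32 and 1.24. Over all 18281 intervals the 2 differences correlated with r = 0.25 (rho = 0.20), a description across intervals, which are not independent.

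Median folds at the fallen intervals were 20.2 and 17.8 in Cpt2 KO and 7.14 and 7.42 in DKO, with 11.5 and 12.5 in WT and 7.75 and 8.83 in Ppara KO. At the risen intervals they were 8.02 and 6.76 in Cpt2 KO, 17.7 and 21.7 in DKO, 8.73 and 9.31 in WT and 13.2 and 15.0 in Ppara KO, over called livers. Both WT livers were uncalled at 53 of the 191 risen intervals (27.7%), against 16.1% of all tested. The difference between the effects, (DKO minus Cpt2 KO) minus (Ppara KO minus WT), passed at 1 of 18281 intervals (0.00547%; 2771 had an unadjusted p under 0.05), near Rpia. Whether the effect at Cyp4a14, Mogat1 or Fgf21's start differed with Cpt2 could not be fitted, because Ppara KO livers were uncalled there; at Acaa1b, with folds of 22 and 33.8 in WT and 7.54 and 8.32 in Ppara KO, the difference with Cpt2 present was −1.77 (limma adjusted p = 0.00641).

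**Figure D4:**
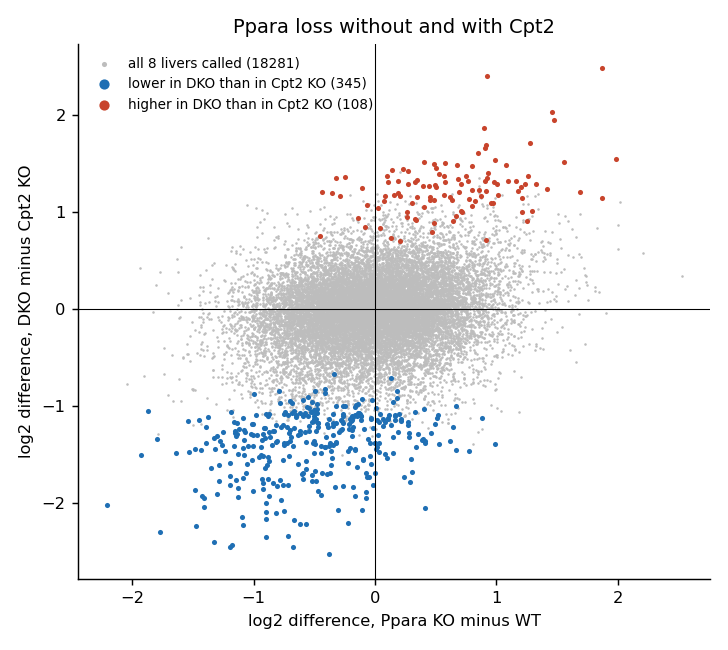
Log2 difference in H3K27ac fold for DKO minus Cpt2 KO (vertical) against Ppara KO minus WT (horizontal) at 18281 intervals called in all 8 livers; blue and red mark the 345 and 108 that passed in the vertical comparison. Most blue points (283 of 345) lie left of 0 and most red points (98 of 108) right of 0.

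H3K4me1 was measured in livers with the same animal numbers in their peak names. The highest H3K4me1 peak in each H3K27ac interval was centred on its library's median. Of 400 fallen intervals 320 were called for H3K4me1 in all 4 livers, and 274 of those (85.6%) were lower in DKO, 154 (48.1%) with both DKO livers below both Cpt2 KO livers; over all tested intervals these shares were 47.6% and 16.5%. Of 191 risen intervals 136 were called, 112 (82.4%) were higher and 86 (63.2%) had both DKO livers above, against 19.3% over all. Median H3K4me1 differences were −0.32 and 0.46; the intervals were selected on H3K27ac, so the sizes of the 2 marks' medians cannot be compared. Retsat had H3K4me1 folds of 10.3 and 11.9 in Cpt2 KO and 4.94 and 6.13 in DKO, beside H3K27ac folds of 26.4 and 25.9 against 8.71 and 7.65. Fabp1 had H3K4me1 folds that overlapped, 11.4 and 9.44 against 9.30 and 10.9. H3K4me1 was uncalled in both DKO livers and called in both Cpt2 KO livers at 527 of the 2704 intervals called only in Cpt2 KO (19.5%, against 2.41% of the 50857), Mogat1, Prox2 and Pik3c2g among them, and the reverse held at 327 of the 3009 called only in DKO (10.9%, against 2.80%).

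**Figure D5:**
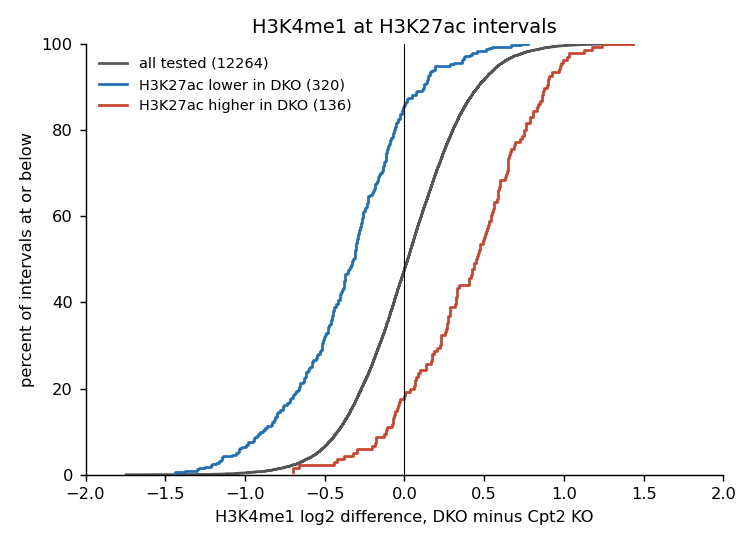
Percent of intervals at or below a given H3K4me1 log2 difference (DKO minus Cpt2 KO), for all tested intervals with H3K4me1 called in 4 livers (12264), for those where H3K27ac fell (320) and for those where it rose (136). The curve of fallen intervals lies left of that of all intervals, with a median of −0.32, and the curve of risen ones lies right, with a median of 0.46.

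Markers of liver cell types were set beside these results. Near any gene 1.51% of tested intervals fell and 0.562% rose. Of called intervals there, 5.35% were called only in DKO and 5.11% only in Cpt2 KO. Both DKO livers lay above both Cpt2 KO livers at 22.3% of all tested intervals and below at 22.5%. For the 12 hepatocyte genes limma called 0 of 23 tested intervals (6 had an unadjusted p under 0.05, 15 had both DKO livers above both Cpt2 KO livers and 3 below; median 0.33), summed folds were 373.1 and 334.0 in Cpt2 KO and 412.4 and 461.0 in DKO, and 8 of 58 called intervals, 3 near Alb and 2 each near Hnf4a and Tat, were called only in DKO. Kupffer cell and macrophage genes had 1 rise and 1 fall in 16 (median 0.25), summed folds of 195.2 and 181.2 against 204.1 and 234.4, and 7 of 47 called only in DKO against 1 only in Cpt2 KO; Marco had no call. Clec4f, a Kupffer cell lectin, rose from 6.74 and 7.01 to 16.2 and 21.6 at an interval 8083 bases away (1.35, limma adjusted p = 0.0151), a call lost in 3 omissions (up to 0.121, without Cpt2 KO replicate 1) and with the recovered pileup height (0.60, limma adjusted p = 0.179). Spi1, a macrophage transcription factor, fell at 1 interval in its body from 31.2 and 28.8 to 9.99 and 5.17 (−2.16, SE 0.34, limma adjusted p = 0.00451). For endothelium and stellate cells limma called 0 of 52 and 0 of 17 intervals (3 and 2 with an unadjusted p under 0.05), with summed folds of 677.7 and 591.5 against 666.2 and 637.8, and of 161.6 and 145.4 against 144.0 and 152.1. Cholangiocyte markers had calls at 4 of 8 genes, with Krt19, Krt7, Epcam and Spp1 uncalled, and lymphocyte and neutrophil markers at 1 of 10, Ptprc. The part of these cell types in the results was not tested.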

How the data were processed

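H3K27ac narrow peaks of single libraries were used as deposited by the authors, in mm10; the submitters' processing notes name BWA and MACS2 2.1.0, and the role and settings of these tools are not given in the sources used here. The deposited fold is a ratio made by the authors, ChIP pileup at the summit over local input. The −log10 p and −log10 q values are also as deposited by the authors, with a smallest −log10 p of 7.02 to 7.03. Start and end positions, other values without a scale, are per the file headers. Depth in reads is unknown.

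For each consensus interval a library's value was the fold of its highest peak there (overlap of 1 base or more), which was log2-transformed and centred on the library median over intervals called in all 4 livers. limma 3.58.1 in R 4.3.3 (lmFit, eBayes with trend) fitted 4 genotype means to 8 libraries, WT and Ppara KO entering where called. On simulated data it recovered 160 of 200 intervals changed by 1 log2 unit among 25533, with 6 false calls. The simulated noise was normal with the same spread at every interval, the median of the observed spreads. Real intervals differed in spread (SE 0.14 at Abcd3, 0.48 at Mfsd2a), so these counts do not give the recovery in these data. Peak names of Ppara KO replicate 2 carry another build word; its positions were used as mm10. Gene bodies (21900) and promoters came from RefSeq tables of GRCm38.p6. Alternatives were scaling, pileup, peak threshold, width covariate, replicate block, filled calls and omission of each library.

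The members, the 33 gene lists (461 of 462 genes matched) and the naming rules were chosen with earlier results of these data known. Named are, within 50000 bases of a gene body, the 12 largest falls and rises with groups that do not overlap (1 interval per gene), the 6 strongest calls in 1 genotype each way, Cpt2, Ppara, up to 6 genes per list that passed, and a set of fixed genes, of which 6 are given and the rest are not reported here. Adjusted p-values come from limma throughout.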

Additional observations from a re-analysis of the deposited data

Results flagged for a closer look

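The effect of Ppara loss differed with Cpt2, by the interaction test, at a single interval 21721 bases from Rpia, which encodes ribose 5-phosphate isomerase of the pentose phosphate pathway (chr6:70812513-70815280). The interaction was −2.16 (SE 0.28, limma adjusted p = 0.0421). Folds were 3.78 and 4.62 in WT, 22.8 and 25.1 in Ppara KO, 27 and 24.9 in Cpt2 KO and 35.2 and 35.4 in DKO. DKO minus Cpt2 KO was 0.35 there (limma adjusted p = 0.505) and Ppara KO minus WT was 2.53, so WT stood apart from the 3 knockout genotypes. The count of such intervals was 1 here, 541 with recovered pileup height and 8 without centring. It was 0 with the replicate block, the width covariate or peaks of −log10 q of at least 10, and 0 in 6 of 8 omissions of a library (5 without WT replicate 1, 1 without Ppara KO replicate 1), so the Rpia call was lost in each setting with 0.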

How the results depend on the processing

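Alternatives were run on every count and named interval. The count of higher intervals was 191 as reported, 109 at intervals called in all 8 livers, 612 with recovered pileup height, 124 with smallest peak width as a covariate and 2271 with uncalled livers filled in, and from 37 to 219 with a library left out. The count of lower intervals was 400 as reported, 1030 with pileup height, 2749 filled in and from 93 to 425 with a library left out. For the interaction limma passed 1 interval as reported, 8 without centring, 541 with pileup height, and 0 with peaks of −log10 q of at least 10 (2536 at an unadjusted p under 0.05), 0 with the width covariate (1888) and 0 with the replicate block (3015); omissions gave 0 to 5. Intervals called only in DKO numbered 4213 to 7768 and only in Cpt2 KO 3844 to 5142 when a library was left out, since fewer calls are then required. The replicate block gave 229 higher and 445 lower; deviations of same-numbered livers correlated at 0.059, and the labels do not say what a number marks. Of 64 named intervals that passed, 27 passed in all 8 omissions and 36 lost the call without Cpt2 KO replicate 2. Without centring 7 of them lost it (Cpt2, Pxmp4, Slc27a4, Tbx3, Arntl, Hmox1 and the Ppara interval at 85741614, with limma adjusted p from 0.0736 to 0.125). The number lost was 7 with the width covariate (Mmp24, Abhd17c, Pxmp4, Slc27a4, Ppargc1a, Tbx3, Clec4f), 6 with the 4 compared libraries alone (Mfsd2a, Elovl5, Slco1a4, Nr0b2, Tbx3, Arntl), 4 with quantile normalization (Mfsd2a, Slc27a4, Elovl5, Tbx3), 4 of 49 at intervals called in all 8 livers (Mfsd2a, Elovl5, Tbx3, Hmox1), 2 with pileup height (Slc2a9, Clec4f), 2 filled in (Mfsd2a, Elovl5) and 1 with the replicate block (Tbx3). Among named intervals that did not pass, the interval across the start of Ppara became −0.33 with pileup height. Other causes were not tested. With 2 livers a group and no read depth, small differences were not detectable.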

Other observations

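Some genes were picked, after their values were seen, for many intervals called in a single genotype. Their counts take the intervals nearest to the gene at any distance. Over all intervals called in at least 1 liver, 5.92% were called only in DKO and 5.32% only in Cpt2 KO. Within 10000 bases of a gene these shares were 5.35% and 5.11%. Cacna1c, a calcium channel subunit, had 8 of its 9 called intervals only in DKO, Ptprc, the common leukocyte antigen, 7 of 12, and Irf2bp2, a transcriptional corepressor, 8 of 30. Rad51b, a DNA repair gene, had 12 of 72 only in DKO and 4 only in Cpt2 KO. Bcl6, a transcriptional repressor, had 6 of 18 only in Cpt2 KO, and Ghr, the growth hormone receptor, 5 of 21. Lcn2, an acute phase protein, rose from 5.85 and 4.8 to 10.7 and 16.3 across its start (1.22, SE 0.29, limma adjusted p = 0.0436; lost in 5 omissions, up to 0.243 without Cpt2 KO replicate 2). Hmox1, heme oxygenase, fell from 28.8 and 25.7 to 16 and 13.3 (−0.99, SE 0.24, limma adjusted p = 0.0412; up to 0.301 without DKO replicate 2). Apolipoprotein and VLDL assembly genes had no call in only 1 genotype (0 of 33 intervals each way), and limma called 0 of their 21 tested intervals (4 with an unadjusted p under 0.05), 9 of which had both DKO livers below both Cpt2 KO livers and 2 above. These shares were 22.5% and 22.3% over all tested intervals.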
